A study of Mus musculus with 3 samples.

Results

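The transcripts described here carry the GENCODE biotype nonsense_mediated_decay and reached a mean of at least 1 TPM (a level corrected for transcript length and library size) in the cytosol of stimulated mouse macrophages. Of 7186 transcripts of this biotype in an annotation of 141767, 558 met that rule, and they belonged to 504 genes. Members were thus selected on their TPM in these same libraries, so TPM and IsoPct (a transcript's percentage of its gene's TPM) are given as descriptions, with no test. RNA came from the cytosolic fraction of C57BL/6J bone marrow-derived macrophages given lipid A, a Toll-like receptor 4 ligand from bacterial endotoxin, at 100 ng/ml for 60 min. Libraries were made from 1 µg of total RNA depleted of ribosomal RNA. There were 3 biological replicates of 1 group, and no unstimulated, nuclear or decay-inhibited samples were analysed here. The labels share a donor entry and do not state whether separate mice were used, so the spread between replicates may be technical.

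Nonsense-mediated decay is a translation-dependent pathway that degrades mRNAs on which the ribosome stops too early. Splicing leaves an exon junction complex upstream of each junction, and a complex that remains downstream of a terminating ribosome lets UPF1 and its partners trigger decay. The pathway acts on cytosolic, translated RNA, and cells also use it on purpose: many splicing regulators include a poison exon, an exon with an in-frame stop, and so lower their own mRNA. The biotype is assigned from the annotated structure, not from measured decay, so a transcript of this class is a predicted target.

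The stop codons that place a transcript in this class are shown for 6 members: 3 of the most abundant with a complete coding sequence, and the 3 most abundant poison-exon members among splicing factors. Each line gives the last 30 bases of the spliced reading frame, 5′ to 3′, from the GENCODE M21 transcripts (GRCm38), with the stop codon in capitals.
Ppia-201, stop at chr11:6418241-6418243 on the plus strand: caaagacagcagaaaactttcgagctcTGA
Rpsa-206, stop at chr9:120130192-120130194 on the plus strand: tggccgcttcacacctgggaccttcacTAA
Lilr4b-204, stop at chr10:51481811-51481813 on the plus strand: tggaacattcagatgctatggcttcttTAG
Hnrnpll-203, stop at chr17:80044976-80044978 on the minus strand: ctgaaacttcttgaaagaagcccacttTGA
Rbm39-225, stop at chr2:156178881-156178883 on the minus strand: tttgattccagtgtgaactgtcaatcaTAA
Srsf3-201, stop at chr17:29039485-29039487 on the plus strand: accatcatgtctcttctcaccaccctcTGA

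The first divergence from the gene's coding form is shown for 3 of the 6, since small changes at a splice site and whole inserted exons look alike in abundance tables. The reference is the gene's most abundant protein-coding transcript with a complete coding sequence. In each pair the 15 lower-case bases are shared and the 15 capitals follow the point where the structures part.
Ppia-201: cgcgtctccttcgagGTCGGCTGTTTGCAG
Ppia-202: cgcgtctccttcgagCTGTTTGCAGACAAA
Hnrnpll-203: atttgggaagacgagGTTGTTGTTGGCTTA
Hnrnpll-205: atttgggaagacgagATAGAGGAAAGGGTC
Srsf3-201: tccacctcggcgcagAGTCACCATCATGTC
Srsf3-202: tccacctcggcgcagATCCCCAAGAAGGAG
Ppia-201 gained 5 bases at this point and reached its stop 54 bases on. Hnrnpll-203 and Srsf3-201 carried whole extra exons of 83 and 456 bases. The 3 other members shown above also gained bases, 73 in Rpsa-206, 5 in Lilr4b-204 and 73 in Rbm39-225.

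The tables held 64110862, 72057046 and 69345880 expected counts in replicates 1, 2 and 3. All 8 macrophage marker genes were at 1 TPM or more (21.7 to 5032), against 2 of 26 markers of other blood and stromal cells, S100a8 and S100a9, and the summed level of those 26 was 31.1, 27.7 and 24.5 TPM. Of 4 nuclear-retained RNAs, 3 passed 1 TPM, and the 4 summed to 465, 135 and 361 TPM. Most of that was Malat1, at 417.2, 122.1 and 322.5 TPM. Some nuclear RNA may thus have been present. TPM depends on the composition given next, and the 4 were not rescaled for it. Replicates 2 and 3 were close in protein-coding share, at 21.6 and 23.6% of TPM. The 4 summed to 135 TPM in replicate 2 against 361 in replicate 3, so they were lower in replicate 2. The part of nuclear RNA in the levels below was not tested. The signal recognition particle RNAs Rn7s1 and Rn7s2 took 57.2, 69.7 and 62.2% of all TPM, which left protein-coding genes 32.7, 21.6 and 23.6%. Replicate 1 gave the highest TPM for 440 of the 558 members, replicate 2 for 48 and replicate 3 for 70. After TPM was rescaled over protein-coding genes, the numbers were 205, 152 and 201.

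Within protein-coding genes, transcripts of the nonsense-mediated decay class made up a small and steady share of the RNA. They held 1.11, 1.16 and 1.14% of the expected counts in replicates 1 to 3, a mean of 1.14% ± 0.0244 (SD, n = 3). Their share of TPM was 1.57, 1.63 and 1.60%, a mean of 1.60% ± 0.0262 (SD, n = 3). The 558 members alone held 0.944% of counts and 1.38% of TPM, so most of the class's signal lay in them. Protein-coding transcripts held 96.6% of counts. Transcripts with a retained intron, which varied more, held 1.73, 1.30 and 1.46%.

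Most members were scarce. Their median was 2.33 TPM. Between 1 and 2 TPM there were 246, and 178 lay between 2 and 5, 73 between 5 and 10, 52 between 10 and 50, 6 between 50 and 100 and 3 above 100. At 1 TPM or more in every library were 438 members, 78.5% of them, against 86.3% of all 15219 transcripts of at least 1 mean TPM. The deposited lower 95% bound of TPM was above 0.1 in every library for 535 members (95.9%, against 96.7% of all). In 7 members at least 1 library was listed at 0: Ap2m1-203, Grk2-209, Ifngr2-202, Rpl6-208, Med25-208, Dhrs7-202 and Fbxo11-204. Just inside the minimum lay Ptpn12-207 (1.70, 0.37 and 0.95 TPM), Pkd1-205 (1.12, 0.82 and 1.07 TPM) and Bclaf1-207 (0.98, 1.10 and 0.92 TPM). Just outside it were Nlrp1b-205 and Supt20-210 at 0.997 TPM and Birc3-207 at 0.993 TPM. Replicate 1 alone carried Ptpn12-207 past the minimum, and its mean without that library was 0.66 TPM.

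The most abundant member was Ppia-201, from the gene of cyclophilin A, a peptidyl-prolyl isomerase. It was at 339, 256 and 253 TPM in replicates 1, 2 and 3, a mean of 282.5 ± 49.0 (SD, n = 3), and took 66.0% of its gene's TPM. The full-length coding form Ppia-202 was lower in every library, at 145, 113 and 126 TPM. Rpsa-206, from the gene of the laminin receptor protein of the small subunit, was at 111, 81.3 and 79.4 TPM and 57.7%. In both genes the nonsense-mediated decay form was the most abundant single transcript by TPM. Of their genes' expected counts, Ppia-201 held 54.3% and Rpsa-206 41.4%. Ppia, ribosomal protein genes and Eef1b2 have many processed pseudogenes, and how reads were shared with those copies is not known, so their levels are uncertain.

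Rgs1 encodes a regulator of G protein signalling that restrains chemokine receptors. Rgs1-204 was at 297, 191 and 172 TPM and 60.4% ± 2.04 of the gene (SD, n = 3). The retained-intron transcript Rgs1-203 held a further 35.6%, at 195, 109 and 94.5 TPM. The most abundant complete coding form, Rgs1-208, averaged 10.4 TPM, and all protein-coding forms together held 3.25% of the gene. By counts, which are not divided by length, Rgs1-204 held 76.0% of the gene.

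Immune receptors of the leukocyte immunoglobulin-like family supplied a pair of the 12 highest members. Lilr4b-204 was at 93.0, 70.4 and 76.3 TPM and 38.9% of its gene, while the coding form Lilr4b-201 averaged 21.5 TPM. Lilrb4a-205, from the neighbouring gene of an inhibitory receptor, was at 63.0, 59.4 and 61.2 TPM and 52.1%. Its coding reference was listed at 0 in replicate 1 and at 17.5 and 16.6 TPM in the others. These genes are close paralogs, so the division of reads between them is uncertain. Neither Lilr4b-204 nor Lilrb4a-205 had an exonic base or a junction absent from its gene's other transcripts, so their shares within the genes are uncertain too. Clec4d-203, from a C-type lectin receptor gene for fungal and mycobacterial ligands, was at 69.1, 47.4 and 55.1 TPM but only 20.8% of its gene, below the coding form at 218 TPM.

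The rest of the 12 came from housekeeping, lysosomal and RNA-binding genes. Ostf1-205 (osteoclast stimulating factor) was at 86.7, 67.5 and 75.8 TPM and 61.9% ± 1.00 (SD, n = 3), with its stop in a 77-base exon that the coding form lacks. Hnrnpu-206 was at 58.9, 37.8 and 49.4 TPM and took 79.6% of the gene of a nuclear matrix RNA-binding protein. It kept 783 codons of the reference's 800 and ended its frame at 793, with 3 junctions after the stop. Ctsh-202 (cathepsin H, a lysosomal protease) varied most in proportion, at 68.3, 27.8 and 43.6 TPM, below the coding form at 65.2 TPM on average. Eef1b2-205, from the gene of an exchange factor for elongation factor 1, was at 60.3, 42.2 and 46.5 TPM, near its coding reference at 47.8 TPM with an SD of 17.4. Protein-coding forms of Eef1b2 together held 53.9% of the gene, against 43.1% for the member. Rpl12-201 was at 94.0, 51.2 and 55.4 TPM in this table, a level that the second quantification did not share. The plot by library of 11 of the 12 shows that replicate 1 was highest in each of those 11.

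**Figure D1:**
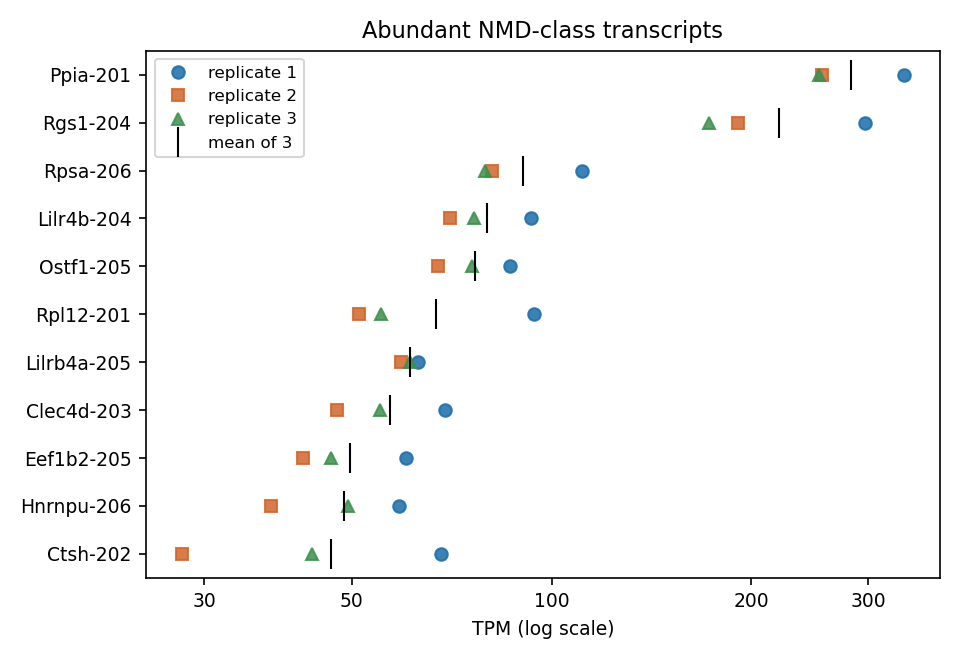
TPM on a log axis of 11 of the 12 most abundant transcripts of the nonsense-mediated decay class, with 1 point for each replicate and a bar at the mean of 3. Replicate 1 lies furthest to the right in every line, and Ctsh-202 has the widest relative spread of the 11 (27.8 to 68.3 TPM).

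As a share of their own genes, members were usually the minor form. Over the 556 members in genes with more than 1 transcript the median IsoPct was 19.9 (quartiles 9.87 and 35.2), and by library it was 19.5, 20.3 and 20.3. Protein-coding transcripts above the same minimum had a median of 58.8, retained-intron transcripts 15.9 and processed transcripts 19.9. A member was its gene's most abundant transcript in 121 of the 556, or 21.8%, against 57.2% of all 14138 such transcripts. Its mean IsoPct was at least 50 in 73, against 49.3% of them. By gene, the class held a median of 24.1% of TPM and protein-coding forms 67.8%. In 95 of the 504 genes the class held at least 50% of the TPM, and in 112 it exceeded the protein-coding forms. Both counts include genes, such as Gm42715 and Evi2, in which protein-coding forms held 0%.

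**Figure D2:**
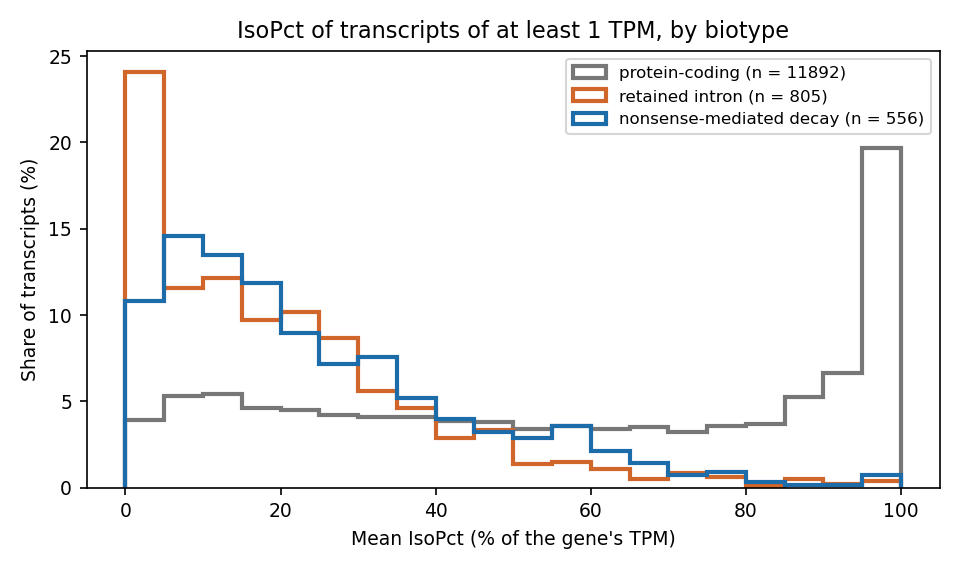
Share of transcripts (%) by mean IsoPct, in bins 5 points wide, for transcripts of at least 1 TPM in genes with more than 1 transcript, by biotype. The nonsense-mediated decay and retained-intron outlines peak at low IsoPct (medians 19.9 and 15.9), while the protein-coding outline extends to the right (median 58.8).

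Those with the highest shares came from modestly expressed genes as well as from the abundant ones above. At or above 75% were 15 members. Some high shares came from genes without an expressed coding form. In Gm42715, Gm20716, Gm21985, Gm21988 and Evi2 the class held 100% of TPM and protein-coding forms 0%. The median IsoPct was 96.0 in the 7 members of genes with no coding reference. Among the 15, Hyi-202 (7.81, 6.38 and 7.21 TPM) took 95.04% of the gene of a hydroxypyruvate isomerase. Mrps14-201 (14.1, 6.71 and 10.6 TPM) and Mrpl32-201 (7.60, 5.34 and 6.14 TPM) took 87.4% and 80.8% of genes for mitochondrial ribosomal proteins. Colec12-201, from a scavenger receptor gene, held 90.3%. The members and genes named so far in this paragraph were chosen for mention after their values were seen. Oasl2-205, from an interferon-induced oligoadenylate synthetase-like gene, was at 47.3, 29.0 and 31.5 TPM and 59.9%, above its coding form at 15.1 TPM. Cenpa-202, from the centromeric histone gene, was at 17.7, 12.7 and 12.4 TPM and 55.6%.

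IsoPct is built on TPM, so a short transcript can take a large share on few reads. Mroh1-208 is 388 bases long. It was at 26.7, 17.1 and 20.3 TPM and 56.6% of its gene, but held 4.68% of the gene's counts. It was the only one of the 75 members at or above 50% to hold under 10% of counts, and 52 of the 75 held at least 50% of counts too. Over all members the median share of counts was 13.1%, and it lay below IsoPct in 412. The plot of the shares against each other shows this shift. The median gap was 6.92 points in the 57 members under 600 bases and 3.06 in the others.

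**Figure D3:**
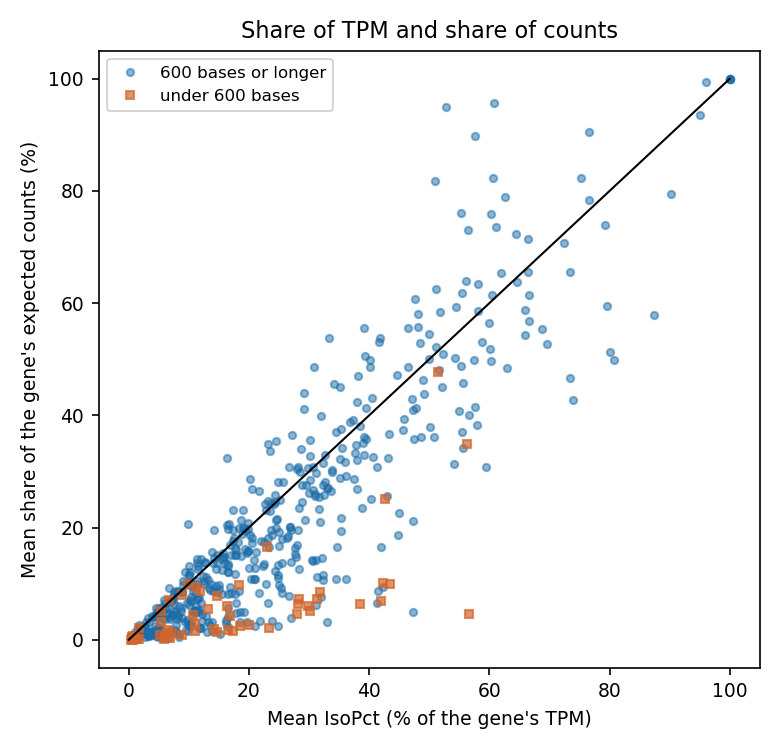
Mean share of the gene's expected counts (%) against mean IsoPct (%), 1 point for each of the 558 members, with the line of equality and those under 600 bases as squares. Most points (412) lie below the line, and the squares lie further below it in the median (6.92 against 3.06 points).

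At the other end, 60 members held under 5% of their genes. Gpnmb-202 (14.1, 5.47 and 10.5 TPM) was 0.42% of a gene whose coding form, for a glycoprotein of lysosome-rich macrophages, averaged 2137 TPM. Ftl1-202 (33.4, 56.3 and 35.3 TPM) was 0.50% of the ferritin light chain gene, whose coding form averaged 8191 TPM. Tnfaip2-209 (7.72, 5.50 and 2.31 TPM) was 0.923%, Ifrd1-209 (13.6, 6.73 and 3.19 TPM) 2.71% and Ddx5-208, from an RNA helicase gene, (10.6, 3.14 and 6.10 TPM) 3.21%. The genes of these 5 members were themselves at 198 TPM or more. High gene levels follow from how the 5 were chosen, as the lowest in IsoPct among members of at least 5 TPM. Without replicate 1 the mean of Ifrd1-209 was 4.96 in place of 7.82 TPM. Only 2 members contained an annotated small RNA gene, Ftl1-202 and Ddx5-208, and neither was a snoRNA.

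IsoPct differed between libraries by a median range of 4.87 points, and by over 10 in 111 members and over 20 points in 15. In genes with more than 1 transcript the median range was 4.895 for members, near the 4.44 of all transcripts of at least 1 TPM. The counts over 10 and 20 points were taken for members only. The widest among members of at least 5 TPM was Selenok-203, from a selenoprotein gene of the endoplasmic reticulum, with 34.9, 12.6 and 2.99% and 18.7, 3.33 and 0.85 TPM. Replicate 1 decided those means: without it they were 7.77% and 2.09 TPM in place of 16.8% and 7.63 TPM. Pnpla2-201 (adipose triglyceride lipase) ranged over 40.04, 17.9 and 32.2%. Hk3-204 (hexokinase 3) was lowest in replicate 1, at 8.47, 30.4 and 20.7%, but its mean IsoPct in kallisto was 3.21% and its rescaled TPM 1.82 in place of 10.8. Lowest in replicate 1 too was Spcs2-204 (a signal peptidase subunit), with 11.97, 32.7 and 24.9%.

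The annotated structures were described next. The stop lay more than 50 bases before the last junction in 555 of 558 members, which restates the rule by which the class is annotated. The same held for 32 of 11840 protein-coding transcripts of at least 1 TPM (0.270%). The distance had a median of 366.5 bases (quartiles 176.5 and 785), against 330 in class members under 1 TPM, and a median of 3 junctions followed the stop. Exactly 1 junction followed it in 136 members. Members were shorter than their reference in 459 of 551 cases (medians 1515 and 2945 bases). Among 396 with complete frames and a reference, 285 kept under 50% of the reference's codons. The median frame of the 400 complete ones was 85.5 codons. Another 158 members are annotated as incomplete, among them Oasl2-205, Mroh1-208, Srsf2-204 and Hnrnpd-208. The TPM and IsoPct of these 158 are those of partial models.

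Relative to the coding reference, most premature stops lay in sequence that the coding form also contains. In 322 members the stop fell in a base that the reference has in an exon. Of these, 177 skipped at least 1 whole reference exon and 144 exactly 1. A further 102 had the stop in an exon absent from the reference, 72 in a longer form of a reference exon and 45 used the reference's own stop with a junction after it. The last 17 lay outside the reference (9), in a retained intron (1, Ddx5-208) or in genes with no reference (7). Median IsoPct was 21.5 for stops in shared bases, 16.6 for own exons, 16.6 for longer exons and 27.1 for the normal stop.

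**Figure D4:**
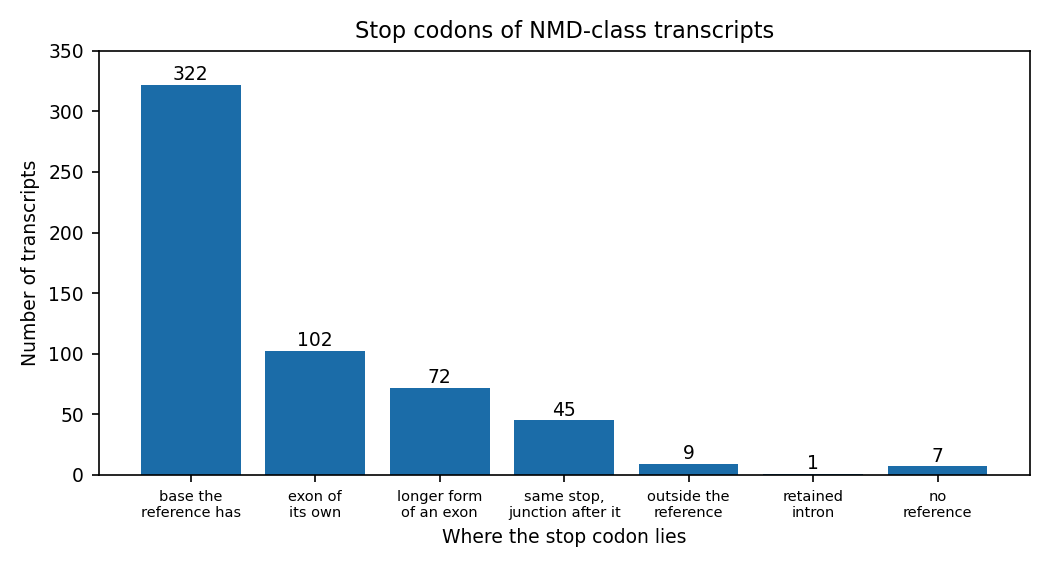
Number of members (bars from 0) by where the stop codon lies relative to the most abundant complete protein-coding transcript of the gene. Stops in bases that the reference also has are the most numerous (322), followed by stops in exons of the member's own (102).

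The change itself could be read for 363 members with a complete frame that share the reference's start codon. Only bases lost were found in 172 (median 94 bases), only bases gained in 160 (median 80.5), and both in 6, while 19 diverged after the stop and 6 did not rejoin. Of the 338 that diverged before the stop and rejoined, the net shift was not a multiple of 3 in 281. Losses were a multiple of 3 in 6 cases and gains in 49. Some of these gains held the stop, as in Rps19-205 (81 bases gained, stop 47 bases on). In others the stop lay beyond the gained bases, as in Eif4a2-210 (3 bases gained, stop 265 bases on). Only the first divergence was scored. Small shifts of 5 bases or fewer, as in Ppia-201, were found in 11 gains and 13 losses. The stop came soon after: within 100 bases in 258, with a median of 47.5. Exons of a member's own that held the stop had a median length of 102 bases (33 to 940), and 39 of the 102 were a multiple of 3. The stop was TGA in 53.2% of members, TAA in 25.4% and TAG in 21.3%, beside 50.9, 26.3 and 22.8% in protein-coding transcripts.

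Many members have little sequence that is theirs alone, which limits how well reads can assign them. In 371 no exonic base was absent from the gene's other transcripts, and of these 260 differed by 1 junction of their own and 85 by none. Ppia-201 and Rgs1-204 each had no base and 1 junction of their own. Annotated support was level 1 (all junctions supported by a good mRNA) in 222 and level 5 (no single transcript supports the structure) in 173. Among the most abundant, Ppia-201, Rgs1-204 and Lilr4b-204 had level 5, while Rpsa-206, Lilrb4a-205, Clec4d-203, Hnrnpu-206 and Ctsh-202 had level 1. Exons of a gene on the opposite strand overlapped 107 members, and no source used here states whether reads were counted by strand, so these levels are uncertain.

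The second quantification of the same libraries, in columns named as kallisto writes them, gave another view of the members. It is the same reads counted anew, not a replicate. At least 1 TPM was reached by 292 members (52.3%), against 67.8% of all transcripts above the minimum. After scaling each library so that protein-coding transcripts summed as in the first table, 457 reached it (81.9%, against 91.3%). Under 0.1 TPM were 39 members (6.99%, against 3.02%), and Myof-205, Grk2-209, Cnot1-212 and Rps6kc1-206 were listed at 0 in every library. Rescaled values lay within 2-fold of the first table in 406 members, more than 2-fold lower in 100 and higher in 52. Across the 558 members, which share libraries and genes, Pearson's r of log2(TPM + 0.1) was 0.708 and Spearman's rho 0.719.

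**Figure D5:**
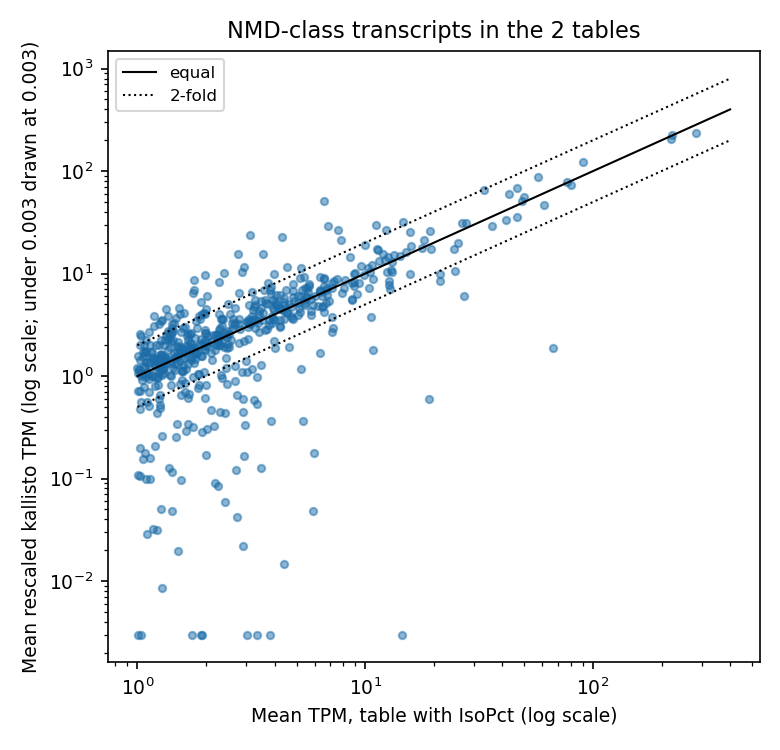
Mean rescaled kallisto TPM against mean TPM of the table with IsoPct, both on log axes, 1 point for each of the 558 members, with lines at equality and at 2-fold. Most members (406) lie within 2-fold, and those near 0 in kallisto are drawn at the bottom edge.

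Of the 12 highest members, 11 lay within 2-fold: rescaled, Ppia-201 was at 236, Rgs1-204 at 207 and Hnrnpu-206 at 51.4 TPM. Rpl12-201 was at 1.88 TPM there, and its whole gene at 3.66 in place of 186 TPM, so its level depends on the quantifier. Gusb-206 (beta-glucuronidase, a lysosomal enzyme) was at 22.4, 13.4 and 21.2 TPM and 0.595 in kallisto. Nfkb1-207, from the gene of the p105 and p50 NF-kB subunit, was at 3.40, 3.02 and 1.79 TPM and 0.0426. Selenok-203 was higher in kallisto, at 26.7 in place of 7.63 TPM, and so were Ifrd1-209, at 21.5 in place of 7.82, and Pnpla2-201, at 11.4 in place of 5.22. Mroh1-208 was lower, at 8.46 in place of 21.4 TPM and 34.1% of its gene. Of the 75 members with IsoPct of at least 50, 52 were at or above 50 there too.

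Splicing factors are the best known users of this kind of transcript. Over all protein-coding genes of at least 1 TPM, 5.52% had a member, and of those with an annotated transcript of the class, 17.7%. Of 63 expressed SR, TRA2, hnRNP and related genes, 15 had one (47 had an annotated transcript), with 20 members and a median IsoPct of 15.4. In 8 of the 20 the stop lay in an exon of the member's own. Hnrnpll-203, from a regulator of lymphocyte splicing, was the highest, at 7.42, 4.20 and 5.36 TPM and 39.1%. Srsf3-201, which carries the 456-base exon shown above, was at 4.20, 2.55 and 2.51 TPM and 15.7%. Tra2b-206, with a 276-base stop exon, was at 3.56, 1.93 and 2.53 TPM and 15.1%, and Srsf6-201, with one of 268 bases, at 3.87, 0.63 and 0.83 TPM and 11.0%. Without replicate 1 the mean of Srsf6-201 was 0.73 in place of 1.78 TPM, under the minimum, while kallisto gave it 8.63 rescaled TPM and 49.2%. Rbm39, a U2AF-related factor, had 3 such members, of which Rbm39-225 was at 3.60, 2.99 and 3.91 TPM.

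Another 6 splicing factor members used the normal stop with junctions placed after it, in the annotated 3′ untranslated region. Srsf2-204 was the highest of them, at 9.73, 10.1 and 11.2 TPM and 32.4% of the gene of an SR protein that binds exonic enhancers. Hnrnpd-208, from the gene of the AU-rich element binding protein AUF1, was at 7.88, 8.30 and 11.4 TPM and 30.7%, and Hnrnpa1-203 at 6.30, 4.12 and 5.98 TPM. The others were Hnrnpdl-201, Hnrnpa2b1-207 and Hnrnpa2b1-209, of which the last averaged 0.665 TPM without replicate 1, in place of 1.45. Srsf2-204 and Hnrnpd-208 were highest in replicate 3, unlike most members. Tardbp, whose protein TDP-43 controls its own mRNA through the 3′ end, had Tardbp-228 at 5.06 and Tardbp-208 at 4.55 TPM on average. Tardbp-228 is not a form with the normal stop. It lost 164 bases of the reference after 79.3 codons and reached a premature stop 17 bases on. Among 25 expressed factors of the decay pathway and the exon junction complex, none had a member, and 4 had an annotated transcript of the class. The shares over all expressed protein-coding genes were 5.52%, and 17.7% of those with an annotated transcript. With so few genes, having none is near those shares, and nothing is read from it.

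Ribosomal protein genes had members in 12 of 82 (14.6%, beside 5.52% of all), 15 transcripts with a median IsoPct of 6.74, and 19 of the 82 had an annotated transcript of the class. Apart from those above, Rpl13a-216 was at 61.7, 43.5 and 34.1 TPM and 11.4% of its gene. Translation factors and tRNA synthetases had members in 8 of 93 expressed genes (8.60%), with 29 annotated. Eif4a2-210, from the gene of a helicase of translation initiation, was at 15.1, 10.01 and 12.1 TPM and 44.6%, above the coding reference at 3.02 TPM. Eif4a2-204 (5.56, 4.88 and 5.05 TPM) ended at the normal stop. Qars-231, from the glutaminyl-tRNA synthetase gene, was at 10.7, 7.53 and 8.43 TPM and 48.1%, with 21 junctions after its stop. In the list of stress and amino acid response genes 2 of 19 (10.5%) had a member and the same number an annotated transcript, Cars-211 at 1.75 TPM and Nupr1-205 at 1.57 TPM.

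Genes of polyamine metabolism and selenoproteins had members in 5 of 27 (18.5%, beside 5.52% of all), and 10 had an annotated transcript. Sat1-207, of the polyamine-degrading spermidine acetyltransferase, had its stop in a 110-base exon and was at 15.8, 10.6 and 10.3 TPM, 7.83% of the gene. Odc1-205, of the rate-limiting enzyme of polyamine synthesis, was at 10.7, 12.6 and 15.1 TPM and 20.3%, and was lowest in replicate 1. Sms-204 (spermine synthase) was at 3.57, 2.64 and 3.01 TPM and 54.1%. Lysosome and macrophage genes had members in 9 of 70 (12.9%), with 20 annotated and a median IsoPct of 2.66.

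Cytokine, chemokine and NF-kB genes had members in 3 of 72 (4.17%, near the 5.52% of all expressed protein-coding genes), and 11 of the 72 had an annotated transcript of the class. The members were Cxcl16-202, Nfkb1-207 and Tnfaip2-209. Cxcl16-202, from a transmembrane chemokine gene, was at 20.5, 10.1 and 8.71 TPM and 27.1%. Interferon and antiviral genes had members in 5 of 57 (8.77%), of which 17 had an annotated transcript. Mx1-205 was at 4.57, 2.35 and 3.53 TPM and 47.6% of a gene whose C57BL/6 allele is known to lack coding exons, but 14.1% and 1.27 rescaled TPM in kallisto. Gbp5-202 (a guanylate-binding protein) was at 9.06, 5.05 and 2.10 TPM, with a mean of 3.58 without replicate 1 in place of 5.40. Psmb9-207 (an immunoproteasome subunit) was lowest in replicate 1, at 0.42, 2.08 and 1.71 TPM. The lists differ in how many of their genes carry an annotated transcript of the class, and no test between lists was made. They differ in gene level too, and with a fixed minimum of TPM a highly expressed gene can have a member of small IsoPct. Median TPM and IsoPct of members were 15.7 and 6.74 for ribosomal proteins, against 2.39 and 15.4 for splicing factors. The percentages of the lists were not adjusted for gene level.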

How the data were processed

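Per the file headers, the authors deposited for each library a transcript table with expected counts, TPM, IsoPct (percent of the gene's TPM) and interval bounds of TPM (unit of signal), in columns named as RSEM writes them, and a second table with estimated counts and TPM in columns named as kallisto writes them. Description files deposited with them name mm10 and GENCODE M21. Versions of the aligner and quantifiers: not given in the sources used here. Expected counts per library were 64110862, 72057046 and 69345880. IsoPct of the kallisto table and shares of counts were computed here. Kallisto TPM was rescaled per library to the first table's protein-coding sum.

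Members are transcripts of the class with mean TPM of at least 1. Members and lists were chosen with earlier results of these data known. Named transcripts were the 12 highest, the 10 highest with IsoPct of at least 50, the 5 lowest in IsoPct and the 4 widest in IsoPct range among those of at least 5 TPM, the 4 highest of each of 9 gene lists, and the 3 on either side of the minimum. Values of 1 named transcript and some sequences are not reported here. With 1 group no test was made, and values are given per replicate or as mean ± SD. Structures were read from GENCODE M21 with Python 3.11.15, numpy 2.4.6 and pandas 2.3.3, and that step was tested on simulated transcripts. Alternatives were leaving out each replicate, the kallisto table, rescaled TPM, minimums of 0.5 and 5 TPM, a minimum in every library, a count minimum of 10, a stop distance of 55 bases and another reference transcript.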

Additional observations from a re-analysis of the deposited data

How the results depend on the processing

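No paired analysis was possible because the series has 1 group. The number of members was 505 to 589 when a replicate was left out (499, 547 and 547 of the 558 shared without replicates 1, 2 and 3), 343 by kallisto TPM (292 shared) or 673 (457 shared) once that TPM was rescaled to the first table's protein-coding sum, 1275 by TPM rescaled over protein-coding genes, 858 and 134 at minimums of 0.5 and 5 TPM, and 4320 with no minimum. The class's share of counts was 1.33% in kallisto, and of TPM 1.87%, or 1.38% for the members only. The median IsoPct was 18.9 to 22.7 without a replicate, 26.4 in kallisto, 15.8 and 35.1 at minimums of 0.5 and 5 TPM, 24.3 with the minimum in every library and 2.35 with none. The percentage of members that were the most abundant of their gene (22.0, with genes of 1 transcript counted) was 31.2 in kallisto, 16.7 and 39.6 at those minimums and 26.0 with the minimum in every library. The percentage at 1 kallisto TPM was 81.9 rescaled and 35.7 and 93.3 at those minimums. A stop distance above 55 bases was found in 97.8% and above 0 in 100%. Genes of the lists with a member were 26 at 5 TPM, in place of 58. The minimum therefore sets these numbers, and most members lie near it. Of the 45 named transcripts, kallisto, unscaled, moved TPM by over 1 SD in 36 and IsoPct in 32. With 3 libraries, leaving one out cannot move a mean by 1 SD, so that limit says nothing of stability. By over 1.5 times it moved the TPM of Gbp5-202, Ifrd1-209, Ptpn12-207 and Selenok-203, and the IsoPct of Selenok-203, each without replicate 1.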

Other observations

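The 5 members described next lie outside the 12 highest and the lists, and were chosen after their values were seen. Mdm2-209, from the gene of the p53 ubiquitin ligase, was at 26.9, 27.3 and 27.6 TPM and 29.9% of its gene, but at 5.98 rescaled TPM in kallisto. Hspa5-204, from the gene of the endoplasmic reticulum chaperone BiP, was at 70.9, 26.0 and 31.0 TPM and 18.5%, with replicate 1 far above the others. Mmp12-204, from the macrophage elastase gene, was at 32.8, 13.7 and 30.5 TPM and 41.7%, above its coding reference at 17.7 TPM on average. All protein-coding forms of Mmp12 together held more than the member, 57.8% of the gene. Il4ra-205, from the interleukin-4 receptor alpha gene, was at 11.7, 5.61 and 8.47 TPM and 45.6%, with its stop in a 114-base exon that the coding form lacks. Bak1-201, from a proapoptotic gene, was at 8.33, 10.02 and 9.93 TPM and 40.4%, above its coding form at 3.11 TPM, with a stop exon of 181 bases.

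Most genes held 1 member (459 of 504), and 38 held 2. Tmem234 held 5, from Tmem234-210 at 5.66, 4.64 and 3.35 TPM down to Tmem234-203 at 1.47, 0.89 and 0.86 TPM. Genes of several members were Arih2, Eif4a2, Lair1, Mrpl3, Rbm39 and Rpl13a, with 3 each.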
